A study of Rattus norvegicus with 26 samples.

Results

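Bile acid synthesis and transport in cultured rat hepatocytes were followed through 8 genes: Cyp7a1, Cyp27a1, Akr1d1, Baat, Abcb11, Slc10a1, Slco1a1 and Nr1h4. The members were every probe set that the array's probe-to-gene table gives to 1 of these genes alone, which made 11 of the 8799 probe sets and 8 of the 4736 genes that the array names in this way. A probe set is the group of short probes that reads 1 transcript, and its value is given here on the log2 scale, so that a difference of 1 is a doubling. Of the 11 probe sets, 10 passed a filter on low values, which required the second-highest of the 26 array values to lie above 3.71, and the second Cyp7a1 probe set did not. Cyp27a1 and Akr1d1 have 2 probe sets that passed. Each gene is represented by its brighter one, and the other is described beside it.

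The study treated primary hepatocytes of female Sprague Dawley rats (Crl:CD(SD)IGS BR) for 48 hours and asked how the dose responses to TCDD and PCB 126 compare. TCDD, a chlorinated dioxin, and PCB 126, a coplanar chlorinated biphenyl without the dioxin's oxygen bridges, both activate the aryl hydrocarbon receptor (AhR). Cells came from 2 pools of 3 animals each, and no age is given in the labels. TCDD was applied at log10 M doses of -14, -12, -10, -8 and -6.5 to both pools and at -11 and -9 to pool 2, which gave 12 arrays. PCB 126 was applied at -12, -10, -8, -6 and -5 to both pools and at -11 and -9 to pool 2, which gave another 12 arrays. The vehicle, 0.5% DMSO, which every culture's group is set against, had 1 array in each pool. Both chemicals are therefore compared with the same 2 vehicle arrays, each pool mixes the cells of its animals into a single biological unit, and p-values measure the spread between arrays only. Precision is limited by how few arrays there are.

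Bile acids are made from cholesterol in hepatocytes. Cyp7a1 catalyses the rate-limiting first step of the classical route, Cyp27a1 is the mitochondrial sterol hydroxylase of the alternative route, Akr1d1 reduces the steroid ring system, and Baat joins the finished acid to taurine or glycine. Slc10a1 (the sodium-dependent carrier NTCP) and Slco1a1 (an organic anion transporter) bring bile acids back from blood, Abcb11 (the bile salt export pump) secretes them into bile, and Nr1h4 encodes FXR, the nuclear receptor that senses them and adjusts their synthesis and export.

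Promoter sequence was held for 4 of the 8 members: Cyp27a1, Baat, Slc10a1 and Slco1a1. The 250 bases before the transcription start are printed 5′ to 3′ for 3 of them. Slc10a1 and Cyp27a1 are shown because they hold the hexamer AGGTCA, a motif that nuclear receptors bind, and Baat because it was the member above vehicle on every TCDD array. Capitals mark AGGTCA or its reverse complement TGACCT. The sequences are RefSeq's on build GRCr8, at chr6:106357945-106358194 (minus strand) for Slc10a1, chr9:83713282-83713531 (plus strand) for Cyp27a1 and chr5:68656138-68656387 (minus strand) for Baat. The Slc10a1 and Baat windows lie just outside the annotated genes, and the Cyp27a1 window lies inside the annotated span of Cyp27a1, before the start of the transcript used.
Slc10a1: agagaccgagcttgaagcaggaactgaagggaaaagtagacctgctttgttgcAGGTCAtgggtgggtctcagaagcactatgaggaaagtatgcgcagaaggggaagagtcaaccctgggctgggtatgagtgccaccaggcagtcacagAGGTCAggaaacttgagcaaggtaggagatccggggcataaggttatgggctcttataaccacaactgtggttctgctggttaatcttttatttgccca
Cyp27a1: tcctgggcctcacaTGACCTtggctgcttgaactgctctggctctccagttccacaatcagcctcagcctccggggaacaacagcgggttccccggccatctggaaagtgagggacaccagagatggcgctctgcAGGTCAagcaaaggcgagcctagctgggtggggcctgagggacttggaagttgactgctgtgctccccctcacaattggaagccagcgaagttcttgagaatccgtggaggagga
Baat: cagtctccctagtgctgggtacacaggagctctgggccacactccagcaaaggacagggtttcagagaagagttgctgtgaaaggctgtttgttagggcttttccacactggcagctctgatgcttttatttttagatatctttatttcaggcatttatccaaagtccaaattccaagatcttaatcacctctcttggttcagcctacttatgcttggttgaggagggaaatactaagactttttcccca
In Slc10a1 the hexamer begins at -197 and at -99 from the start, both in the direction of the gene. In Cyp27a1 it begins at -115 in the direction of the gene and at -236 in the opposite direction. The 4 promoters held no match to GCGTG, the core of the AhR response element, on either strand. Among 33469 rat promoters of the same length, 25.9% hold GCGTG and 14.1% hold AGGTCA on either strand. A match is only a description of these letters. The genes themselves lie on chromosome 5 (Cyp7a1 at 24174505-24184202 and Baat at 68647166-68656137), chromosome 9 (Cyp27a1 at 83712402-83743222), chromosome 4 (Akr1d1 at 67121288-67154543 and Slco1a1 at 176606924-176682027), chromosome 3 (Abcb11 at 74424620-74520646), chromosome 6 (Slc10a1 at 106344319-106357944) and chromosome 7 (Nr1h4 at 25733471-25829440) of GRCr8.

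The cultures responded to both chemicals. At the 2 highest doses against vehicle, the 5 AhR targets Cyp1a1, Cyp1a2, Cyp1b1, Aldh3a1 and Nqo1 rose, by 3.01 to 8.97 with TCDD and by 2.85 to 8.93 with PCB 126. The 14 hepatocyte markers measured of 15 had a mean log2 level of 8.71 to 9.12 per array at the 2 highest TCDD doses, 8.89 to 9.10 at the 2 highest PCB 126 doses and 8.95 to 9.10 in vehicle. Of the 14, 2 fell in the TCDD trend and 1 rose in the PCB 126 trend. At the 2 highest doses 1 of them rose with each chemical (limma), beside 2.25% and 3.04% of all probe sets called in either direction. With each, 5 had an unadjusted p below 0.05, as had 10.9% and 13.3% of all probe sets. The mean hides opposite moves: Tat averaged 8.67 with TCDD and 9.0 with PCB 126, against 7.43 in vehicle. Cps1 averaged 8.44 and 8.74, against 9.6. The 8 cholangiocyte markers measured of 12 averaged between 4.81 and 5.18 in the same arrays. The 7 stellate cell and fibroblast markers measured of 12 averaged 5.51 to 5.86 with TCDD and 4.89 to 5.70 with PCB 126 at those doses, against 5.75 to 5.97 in vehicle, and the 4 macrophage markers measured of 12 averaged 5.05 to 5.36 and 5.24 to 5.44, against 5.32 to 5.61 in vehicle. At those doses 1 of the 4 macrophage markers fell with TCDD and none passed with PCB 126, and 1 of the 7 stellate cell and fibroblast markers fell with PCB 126 and none passed with TCDD (limma). The macrophage marker was Lyz2, with differences of -1.40 with TCDD and -1.11 with PCB 126 (adjusted p = 0.0229 and 0.0654). In the same list Cd14 averaged 4.95 with TCDD and 5.08 with PCB 126, against 4.56 in vehicle. C1qc averaged 3.94 and 3.88, against 3.84. The median difference of the 4 macrophage markers was -0.04 with TCDD and 0.03 with PCB 126. The stellate cell and fibroblast marker was Tagln, with -1.74 with TCDD and -2.95 with PCB 126 (adjusted p = 0.0655 and 0.00162). The median difference of its list was -0.01 with TCDD and -0.13 with PCB 126. Their part in the values below was not tested, and fewer cells of a type cannot be told apart from less RNA per cell in such cultures. The array labelled PCB 126 at -12 of pool 2 stood apart, with Cyp1a1 at 10.80 against 3.21 in pool 1 at that dose and 3.28 in the vehicle array of its pool. The dose on its label is therefore in doubt, and each value given below for PCB 126 at -12 in pool 2 is that of the array so labelled. Without it the count of members called stayed at 1 for the TCDD trend and at 0 for the PCB 126 trend. Among the other bile acid genes described below, the count called without it went from 3 to 2 with TCDD. With PCB 126 that count went from 4 to 3.

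Of the 8 genes, 1 changed with the dose of TCDD and none passed the test with PCB 126. Akr1d1, the steroid ring reductase, fell with TCDD by 0.18 ± 0.045 log2 per 10-fold dose (SE, adjusted p = 0.0258). The dose trend was a limma model over all 26 arrays with the pool as a block and a slope on log10 dose for each chemical, and a gene was called at a Benjamini-Hochberg adjusted p below 0.05 over the 5197 probe sets kept. Over all probe sets 3.1% were called in the TCDD trend and 1.46% with a negative slope, and 4.25% were called in the PCB 126 trend. Of the 5 AhR targets, 5 were called in the TCDD trend and 4 in the PCB 126 trend, although all 5 rose at the 2 highest PCB 126 doses. A gene that responds can therefore go uncalled in the PCB 126 trend. The members' median slope was -0.01 with TCDD and 0.01 with PCB 126, the same as the medians of all probe sets. Unadjusted p was below 0.05 for 2 members with TCDD and for 3 with PCB 126, as it was for 14.5% and 16.9% of all probe sets.

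**Figure D1:**
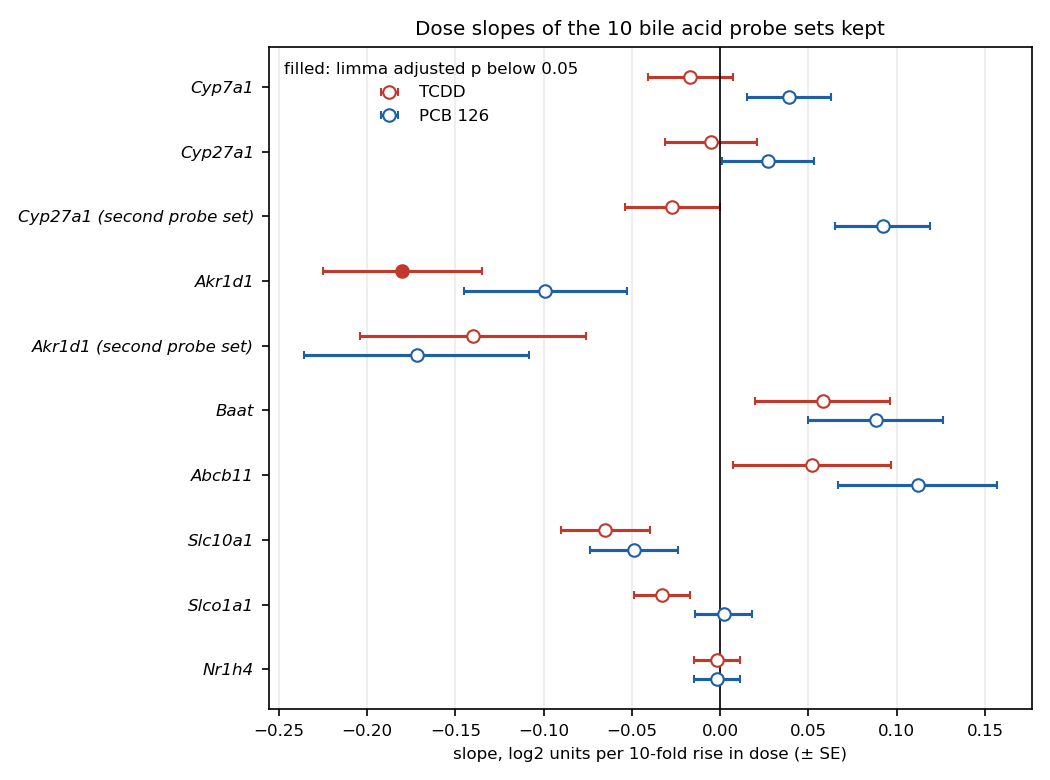
Slope of each kept bile acid probe set in log2 units per 10-fold dose, with TCDD in red above PCB 126 in blue, horizontal bars ± SE, and filled points for a limma adjusted p below 0.05. The only filled point is the TCDD slope of Akr1d1 at -0.18; the second Cyp27a1 probe set lies at -0.027 with TCDD and 0.092 with PCB 126.

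Cyp7a1, the first enzyme of the classical route, was dim. Its kept probe set ranged from 3.84 to 5.27 over the 12 TCDD arrays (median 4.03), from 3.79 to 4.74 over the 12 PCB 126 arrays (median 4.21), and was 4.88 and 3.96 in the vehicle arrays of pools 1 and 2. The groups overlapped fully, and what separated the arrays was the pool: all 11 arrays of pool 1 lay between 4.39 and 5.27, and 14 of the 15 of pool 2 lay at or below 4.06. The exception was PCB 126 at -5 in pool 2, at 4.58, an array whose median over all probe sets (3.78) was the highest of that pool. The slope was -0.017 ± 0.024 with TCDD and 0.039 ± 0.024 with PCB 126 (adjusted p = 0.794 and 0.382), and without that array the PCB 126 slope was 0.00. The Cyp7a1 probe set that did not pass the filter stayed between 1.88 and 2.47 on all 26 arrays.

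The kept Cyp7a1 values also followed those of many other probe sets. After each pool's mean was subtracted, 33 of 8739 other probe sets correlated with it above 0.99 over the 26 arrays and 428 above 0.95. Of all 8740 probe sets, 89.1% had no partner above 0.99 and 3.66% had at least as many as Cyp7a1. No other kept member had a partner above 0.95. The nearest genes were P22k15, Prl8a7 and Gzmn, each with r above 0.99. The values beside this are the levels: Cyp7a1 averaged 0.61 log2 above the median probe set of its array. The 33 partners above 0.99 had mean levels of 3.63 to 4.99 (median 4.25). The 428 above 0.95 had mean levels of 2.51 to 6.33 (median 3.63), against a median of 3.72 for all probe sets. The part of low signal in the shared profile was not tested.

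Cyp27a1, the sterol hydroxylase of the alternative route, was bright and nearly level. It ranged from 8.45 to 9.48 with TCDD (median 9.09), from 8.91 to 9.40 with PCB 126 (median 9.08), and was 9.02 and 9.17 in vehicle. Its slopes were -0.005 ± 0.026 with TCDD and 0.027 ± 0.026 with PCB 126 (adjusted p = 0.943 and 0.555). The lowest value was TCDD at -14 in pool 1, the lowest dose of all. The second probe set ranged from 7.26 to 8.03 with TCDD and from 7.44 to 8.21 with PCB 126, against 7.93 and 7.72 in vehicle, and its 4 arrays at the 2 highest PCB 126 doses (8.07 to 8.21) all lay above both vehicle arrays. Its PCB 126 slope of 0.092 ± 0.027 missed the threshold (adjusted p = 0.0551). The 2 probe sets of Cyp27a1 correlated at only 0.20 over the 26 arrays after each pool's mean was subtracted, so they did not report 1 common pattern.

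Akr1d1 gave the clearest dose pattern among the members. With TCDD in pool 1, from -14 to -6.5, its values were 7.43, 7.92, 7.81, 6.92 and 6.36, against 7.96 in vehicle. With TCDD in pool 2, over 7 doses from -14 to -6.5, they were 8.55, 8.69, 8.21, 8.22, 7.71, 7.19 and 7.45, against 8.0 in vehicle. In each pool the 2 highest doses were the lowest values and lay below that pool's vehicle, and the 4 lowest doses of pool 2 lay above it. The slopes within pools were -0.16 ± 0.066 in pool 1 and -0.20 ± 0.064 in pool 2 (difference of pool 2 from pool 1 -0.038, 95% interval -0.23 to 0.15, adjusted p = 0.917). At the 2 highest TCDD doses the mean was 6.98 ± 0.47 (SD, n = 4), against 7.98 ± 0.03 (SD, n = 2) in vehicle, a difference of -1.0 ± 0.32 (SE), or 0.501 times the vehicle level on the linear scale, that did not pass over all probe sets (limma adjusted p = 0.167).
With PCB 126, pool 1 gave 8.14, 7.34, 6.41, 7.69 and 6.83 from -12 to -5. Pool 2 gave 7.48, 7.99, 7.82, 7.42, 7.32, 7.35 and 7.11 over 7 doses from -12 to -5. Of these 12 arrays, 11 lay below the vehicle array of their pool, with -8 of pool 1 the lowest, and the order of doses was less regular than with TCDD. At -11 in pool 2 the value, 7.99, all but equalled its vehicle, 8.0. With PCB 126, 26.5% of all probe sets had at least 10 of 12 arrays below their vehicle. The PCB 126 slope of -0.099 ± 0.046 did not pass (adjusted p = 0.268), nor did the -0.73 ± 0.32 between the 2 highest doses and vehicle (adjusted p = 0.334). All 4 high-dose arrays lay below their vehicle with either chemical, which held for 20.8% of all probe sets with TCDD and 13.2% with PCB 126.

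**Figure D2:**
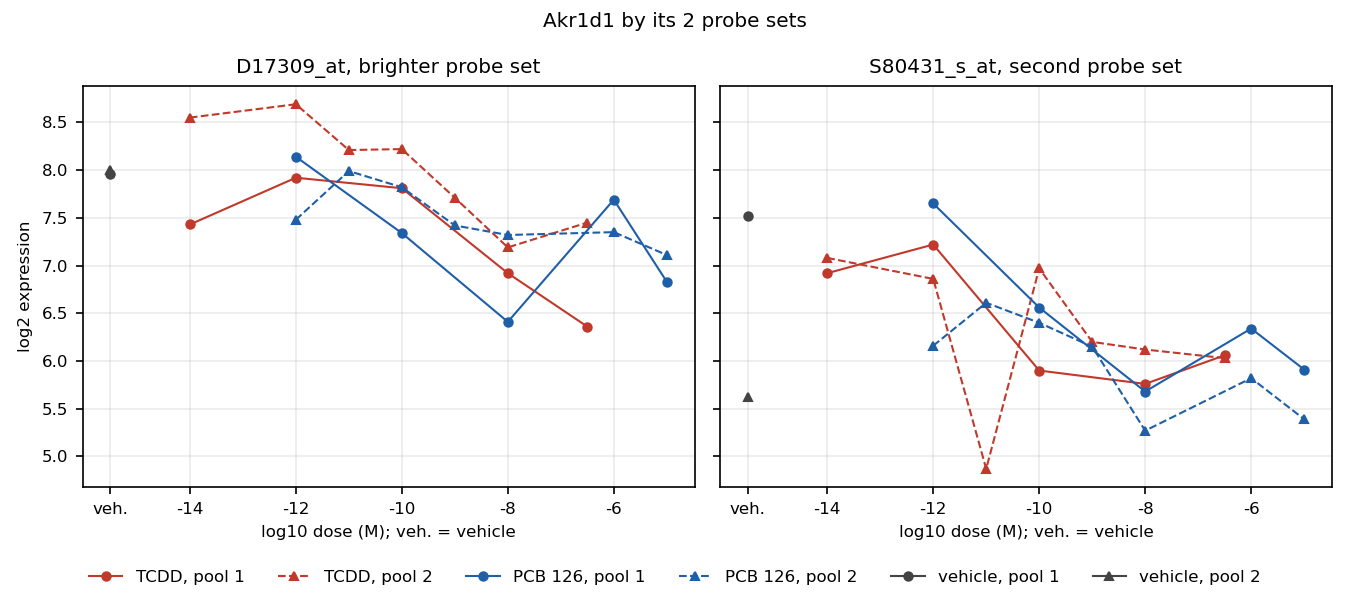
Log2 expression of Akr1d1 on each array by its 2 probe sets, against log10 dose in M, with TCDD in red, PCB 126 in blue and vehicle in grey, circles and solid lines for pool 1 and triangles and dashed lines for pool 2. The brighter probe set, on the left, goes down to 6.36 at the highest TCDD dose of pool 1; the second, on the right, has vehicle arrays at 7.52 and 5.62 and a single low value of 4.87.

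The second Akr1d1 probe set had slopes of the same sign, -0.14 ± 0.064 with TCDD and -0.17 ± 0.064 with PCB 126, neither of which passed (adjusted p = 0.308 and 0.147). Its vehicle arrays differed widely, at 7.52 in pool 1 and 5.62 in pool 2, and its value of 4.87 with TCDD at -11 in pool 2 was the lowest of all 26. The 2 probe sets correlated at 0.64 over the arrays after each pool's mean was subtracted. The Akr1d1 call was lost when the 2 probe sets were averaged (adjusted p = 0.0647), when each array was centred on its median (0.0563) and without the array of TCDD at -6.5 in pool 1 (0.169), and the slope stayed negative in all 38 alternatives tried. Sult1b1 (r = 0.86), Cyp2b3 (0.86) and Cyp2c12 (0.82) had the profiles most like it among 3033 other genes over the 26 arrays, which share 2 pools and the same dose series.

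Baat, the conjugating enzyme, was above vehicle on nearly every treated array but showed no passing slope. With TCDD it was 7.87, 7.51, 7.90, 8.52 and 8.01 in pool 1 from -14 to -6.5, against 7.43 in vehicle. In pool 2 with TCDD it was 7.27, 7.78, 8.19, 8.09, 7.95, 7.91 and 7.68 over 7 doses, against 7.25 in vehicle. All 12 TCDD arrays thus lay above the vehicle array of their pool, a direction that 1.02% of all probe sets showed. The highest values stood at -8 in pool 1 and at -11 in pool 2. With PCB 126 it was 7.49, 7.66, 7.68, 8.91 and 7.75 in pool 1 from -12 to -5. In pool 2 with PCB 126 it was 7.37, 7.03, 7.46, 7.70, 7.93, 7.69 and 7.56. Here 11 of 12 arrays lay above their vehicle, as at least that many did for 6.37% of all probe sets, and -6 of pool 1 stood highest of all 26 arrays. These counts set every array of a pool against 1 vehicle array. Slopes were 0.058 ± 0.038 with TCDD and 0.088 ± 0.038 with PCB 126 (adjusted p = 0.533 and 0.23). At the 2 highest doses the mean exceeded vehicle by 0.69 ± 0.26 with TCDD and by 0.64 ± 0.26 with PCB 126, and neither passed (adjusted p = 0.284 and 0.293). C4bpb (r = 0.86), Scd2 (0.86) and Exoc3 (0.80) were the genes whose profile was most like that of Baat.

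**Figure D3:**
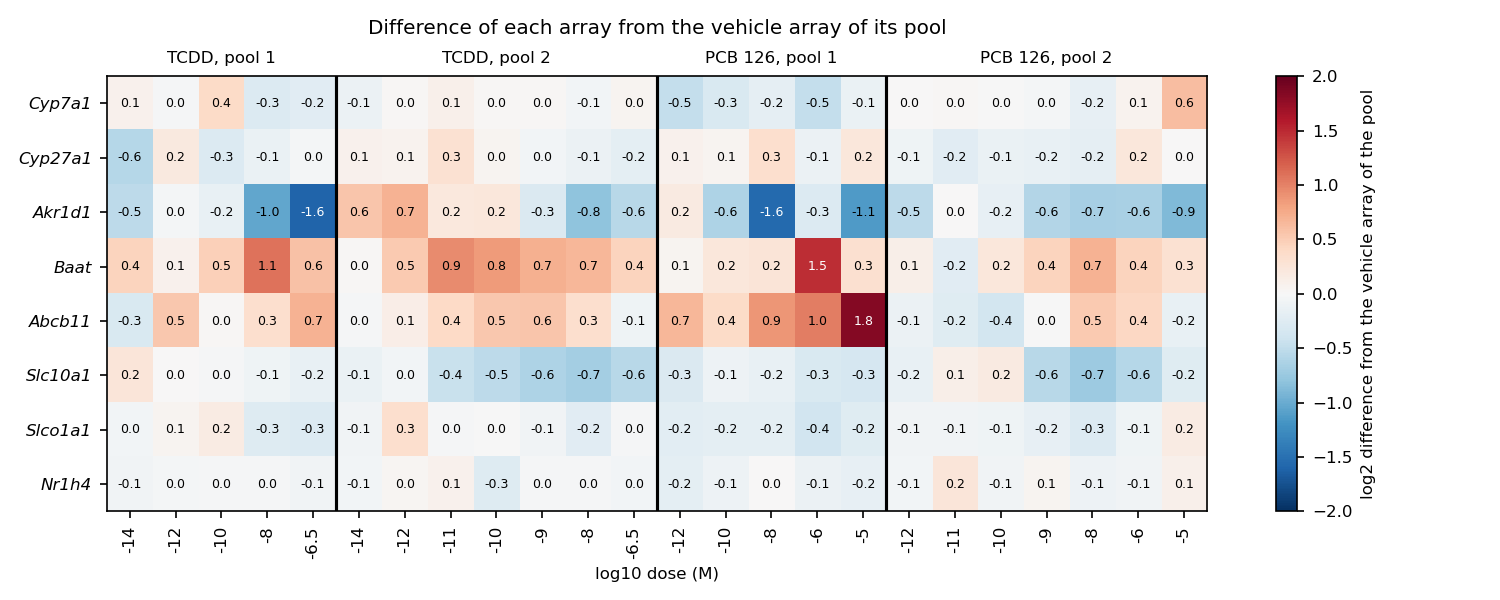
Difference of each treated array from the vehicle array of its pool, in log2 units, for the representative probe set of each member, with arrays in columns by chemical, pool and rising log10 dose and the colour scale running from -2 (blue) to 2 (red). The Baat row is positive on all 12 TCDD arrays, the Slc10a1 row is negative on 10 of 12 arrays with each chemical, and Akr1d1 has its deepest value, -1.60, at the highest TCDD dose of pool 1.

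Slc10a1, the sodium-dependent uptake carrier, was dim, at 0.51 above the array median in the vehicle array of pool 1 and 0.93 in that of pool 2. With TCDD it was 4.66, 4.42, 4.39, 4.32 and 4.26 in pool 1, against 4.41 in vehicle. In pool 2 with TCDD it was 4.38, 4.46, 4.08, 3.98, 3.90, 3.83 and 3.95, against 4.51 in vehicle. With TCDD the 2 lowest doses were the 2 highest values in each pool, and the range within pool 1 was narrow. With PCB 126 it was 4.12, 4.31, 4.26, 4.11 and 4.07 in pool 1 and 4.36, 4.63, 4.69, 3.96, 3.78, 3.94 and 4.27 in pool 2. With each chemical 10 of 12 arrays lay below the vehicle array of their pool, where 13.2% of all probe sets had at least 10 with TCDD and 26.5% with PCB 126. The slope was -0.065 ± 0.025 with TCDD (unadjusted p = 0.016, limma adjusted p = 0.19) and -0.049 ± 0.025 with PCB 126 (adjusted p = 0.328). Against vehicle the 2 highest doses differed by -0.37 ± 0.18 with TCDD and -0.36 ± 0.18 with PCB 126 (adjusted p = 0.474 and 0.413). The nearest profiles were those of Slc16a12 (r = 0.80), F3 (0.79) and Slc25a23 (0.77).

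Slco1a1, the organic anion uptake transporter, lay close to the array median. It ranged from 3.51 to 4.36 with TCDD and from 3.48 to 4.01 with PCB 126, against 4.21 and 3.75 in vehicle, and the groups overlapped. The slope was -0.033 ± 0.016 with TCDD and 0.002 ± 0.016 with PCB 126 (adjusted p = 0.346 and 0.962). On the PCB 126 array at -5 of pool 2 it was 3.91, the highest value among the PCB 126 arrays of that pool, but 0.12 above that array's median, the same as at -12. Its nearest profiles were Pklr (r = 0.92), Fabp7 (0.89) and Selp (0.84).

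Abcb11, the bile salt export pump, differed between the pools and had no passing slope. With TCDD it was 4.91, 5.74, 5.23, 5.54 and 5.90 in pool 1, against 5.21 in vehicle. In pool 2 with TCDD it was 6.30, 6.47, 6.73, 6.87, 6.89, 6.66 and 6.24, against 6.33 in vehicle. The pool 2 values were highest at -9 and returned at the highest dose to about the vehicle value. With PCB 126 it was 5.88, 5.59, 6.10, 6.22 and 7.04 in pool 1, all above the vehicle array of that pool. In pool 2 with PCB 126 it was 6.22, 6.09, 5.95, 6.31, 6.85, 6.73 and 6.18, on both sides of its vehicle. The slope was 0.052 ± 0.045 with TCDD and 0.112 ± 0.045 with PCB 126 (adjusted p = 0.668 and 0.19). At the 2 highest PCB 126 doses the mean differed from vehicle by 0.78 ± 0.37 (adjusted p = 0.388), with both pool 1 arrays above their vehicle and the pool 2 arrays on either side of theirs. Without the array of PCB 126 at -5 in pool 1 the slope was 0.06, and without that of pool 2 it was 0.17 (adjusted p = 0.487 and 0.0533). Pcsk6 (r = 0.80), Slc25a10 (0.79) and Qdpr (0.78) had the most similar profiles.

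Nr1h4, the bile acid receptor FXR, lay between 3.72 and 4.21 on all 26 arrays, close to the array median. Its slope was -0.002 ± 0.013 with either chemical, with 95% intervals from -0.03 to 0.03 (adjusted p = 0.948 with TCDD and 0.964 with PCB 126). No gene followed it closely: the nearest were Mrto4 (r = 0.62), Sgk1 (0.62) and Pcolce (0.60). Among the members themselves the strongest relations over the 26 arrays, after each pool's mean was subtracted, were 0.71 between Cyp7a1 and Slco1a1, -0.67 between Abcb11 and Slc10a1, 0.59 between Cyp27a1 and Abcb11 and -0.52 between Baat and Slc10a1. The exporter Abcb11 and the uptake carrier Slc10a1 thus tended to run in opposite directions across these arrays, which share pools, vehicle and dose series. Slc10a1 averaged only 0.54 log2 above the array median. How often other pairs of genes reach such correlations is not given here. The 0.71 with Cyp7a1 has a limit, since 428 other probe sets followed the Cyp7a1 profile above 0.95. Slco1a1 averaged only 0.16 log2 above the array median.

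**Figure D4:**
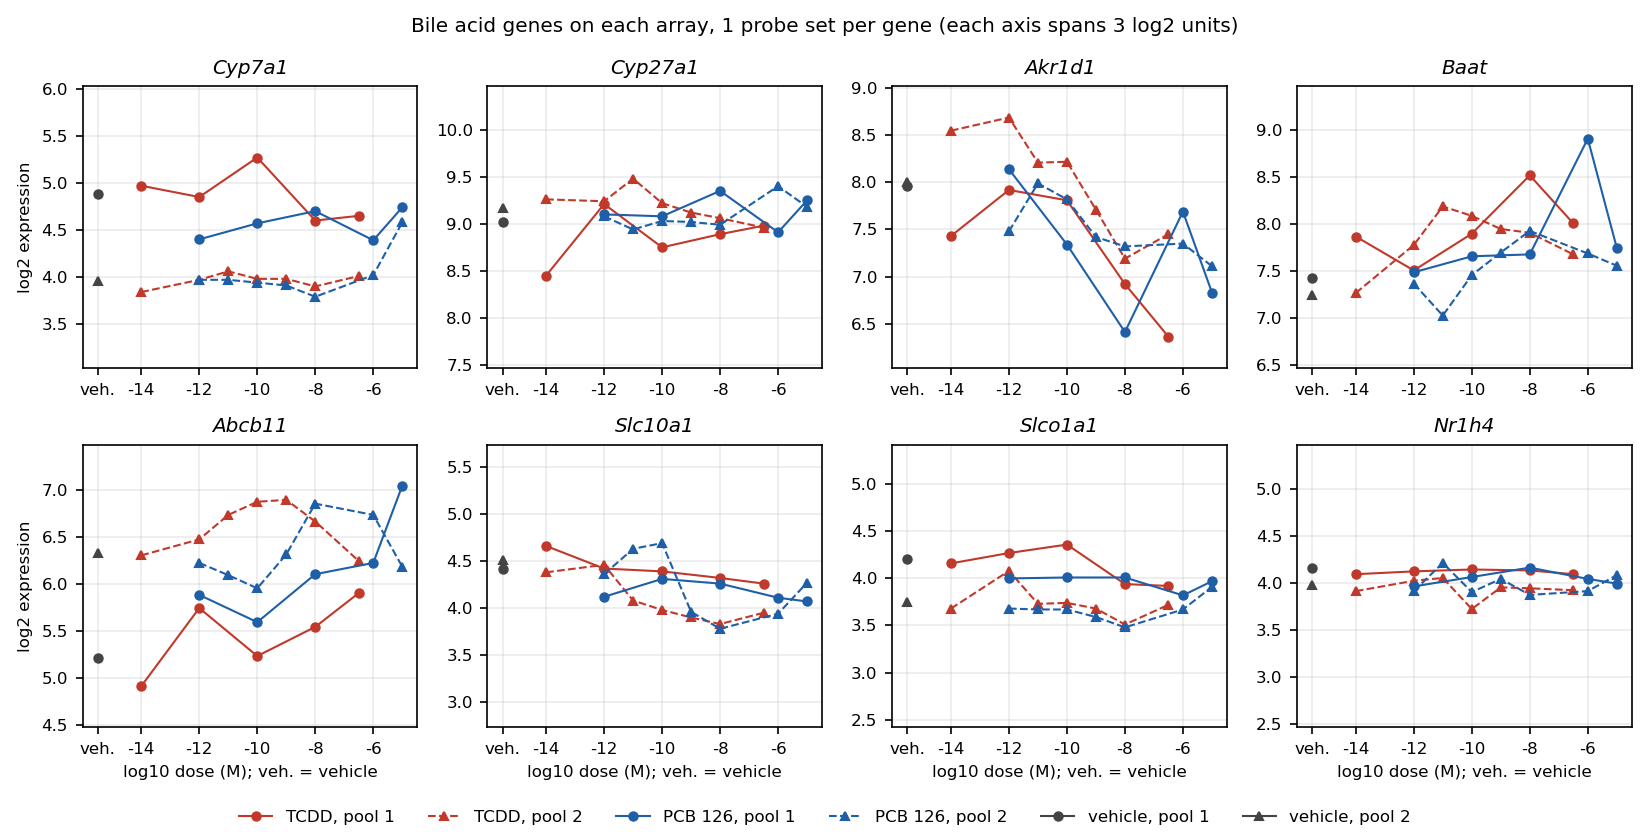
Log2 expression of each of the 8 members on all 26 arrays against log10 dose in M, with TCDD in red, PCB 126 in blue and vehicle in grey, circles with solid lines for pool 1 and triangles with dashed lines for pool 2, and each vertical axis spanning 3 log2 units. Cyp7a1 lies lower in pool 2 on all but 1 array, the pools of Abcb11 overlap, Akr1d1 goes down with TCDD dose in both pools, and Nr1h4 stays between 3.72 and 4.21.

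TCDD and PCB 126 were compared directly at the 5 doses both were given at, -12, -11, -10, -9 and -8, which made 40 pairs of member and dose. No pair passed (limma, adjusted over all probe sets within each dose), and 2 of the 40 had an unadjusted p below 0.05. Adjustment over the 5 doses together also called none. Over all probe sets 0% were called at -12, 2.62% at -11, 0.0385% at -10, 0% at -9 and 0% at -8. At -11 and -9 each side was 1 array of pool 2, assumed to vary like the other groups.
Baat at -11 was 8.19 with TCDD and 7.03 with PCB 126, a difference of 1.16 (95% interval 0.24 to 2.08, unadjusted p = 0.0171, limma adjusted p = 0.213). Slco1a1 at -12 was 4.27 and 4.08 with TCDD and 4.0 and 3.68 with PCB 126 in pools 1 and 2, a difference of 0.34 (95% interval 0.05 to 0.62, adjusted p = 0.97), and the PCB 126 array of pool 2 there is the one that stood apart. Akr1d1 differed by 0.19 at -8 (95% interval -0.60 to 0.99) and by 0.19 to 0.49 over the 5 doses. Slc10a1 differed by 0.057 at -8 (95% interval -0.38 to 0.50), and Cyp7a1 by 0.00 (95% interval -0.47 to 0.47). Over the 40 pairs the intervals reached from -1.28 to 2.08, and those of Cyp27a1, Akr1d1, Baat, Abcb11 and Slc10a1 still held a difference of 1 log2 unit, in one direction or the other, at some dose.
The difference between the slopes of the 2 chemicals passed for no member (limma, 0% of all probe sets called), and no representative probe set had an unadjusted p below 0.05. For Akr1d1 the TCDD slope minus the PCB 126 slope was -0.081 (95% interval -0.21 to 0.05, adjusted p = 0.641), so its call with TCDD and not with PCB 126 is not a shown difference. For the second Cyp27a1 probe set it was -0.119 (95% interval -0.20 to -0.04, unadjusted p = 0.00484, adjusted p = 0.577).

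The pools differed for 5 of the 8 members, pool 2 minus pool 1, where 79.8% of all probe sets were called, 40% as higher and 39.7% as lower in pool 2, so the count says nothing about bile acid genes as such. Abcb11 was higher in pool 2 by 0.71 ± 0.15 (adjusted p = 0.000179) and Akr1d1 by 0.41 ± 0.16 (adjusted p = 0.0193). The Akr1d1 difference was -0.01 when its 2 probe sets were averaged. Lower in pool 2 were Cyp7a1 with -0.73 ± 0.082, Slco1a1 with -0.35 ± 0.056 and Nr1h4 with -0.13 ± 0.046. Those 3 are dim genes, and the array medians themselves were 3.58 ± 0.07 in pool 2 (SD, n = 15) and 3.85 ± 0.08 in pool 1 (SD, n = 11). With each array centred on its median, Nr1h4 turned to 0.15 (adjusted p = 0.00164), Slco1a1 no longer passed at -0.08 (adjusted p = 0.0591), Cyp7a1 kept its call at -0.45, and Cyp27a1, which did not pass before, was called at 0.42 (adjusted p = 0.000316). Each pool is 1 unit, so animals, culture and array processing cannot be told apart here. A difference between the pools' slopes passed for no member with TCDD (0.0577% of all probe sets called, limma) or with PCB 126 (0%), and no member's unadjusted p was below 0.05.

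Of the 31 other bile acid genes measured, in 4 lists chosen with earlier results of these data known, 3 were called with TCDD and 4 with PCB 126, beside 3.1% and 4.25% of all probe sets. Of 16 other synthesis genes, 7 were measured and none passed in either trend (limma); Hsd3b7, which acts early in synthesis on the steroid ring, had the smallest p with TCDD (slope 0.077 ± 0.036, adjusted p = 0.316), followed by Slc27a2, an acyl-CoA ligase and fatty acid carrier (-0.05 ± 0.032). With PCB 126 the smallest were Acaa1b (0.023 ± 0.010, adjusted p = 0.261) and Hsd17b4 (-0.041 ± 0.022), both of peroxisomal oxidation. Of 19 other transport genes, 8 were measured. Abcc2, the canalicular conjugate export pump, rose with PCB 126 by 0.11 ± 0.03 per 10-fold dose (adjusted p = 0.0269), and its log2 level was 10.52 to 11.28 at the 2 highest doses, against 9.33 and 10.47 in vehicle. Its TCDD slope of 0.092 ± 0.029 did not pass (adjusted p = 0.0936). The Abcc2 call with PCB 126 was kept in 29 of 38 alternatives, 22 of them among the 26 fits with single arrays left out. Fits without a TCDD or vehicle array reach a PCB 126 slope only through the pool term and the spread, so they could hardly move it. The Abcc2 call was lost with each array centred on its median (limma adjusted p = 0.105) and without the pool block (0.733). The doses given to both pools (0.0959) and each pool alone did not keep it either. Abcb1b, a multidrug export pump, fell with PCB 126 by 0.08 ± 0.023 (adjusted p = 0.0483), with a TCDD slope of -0.032 ± 0.023. The Abcb1b call was kept in 14 of 38 alternatives, 8 of them among the 26 fits with single arrays left out. It was lost without the array labelled PCB 126 at -12 of pool 2, whose dose is in doubt (limma adjusted p = 0.0847). The slope was -0.04 without the highest dose (adjusted p = 0.924).
Of 20 regulators, 8 were measured, and Cebpb, a transcription factor of liver and acute phase genes, rose with TCDD by 0.30 ± 0.054 and with PCB 126 by 0.24 ± 0.054 (adjusted p = 0.00335 and 0.0105). Its levels were 8.65 to 9.31 at the 2 highest TCDD doses and 8.84 to 8.92 at the 2 highest PCB 126 doses, against 6.63 and 7.71 in vehicle. The next smallest p among regulators belonged to Nr1h2, an oxysterol receptor, with TCDD (0.157 ± 0.071, adjusted p = 0.301) and to Fgfr4, the receptor for the gut hormone that restrains Cyp7a1, with PCB 126 (0.095 ± 0.044, adjusted p = 0.265). Of 11 genes of bile acid sulfation and detoxification, 8 were measured. Ephx1, a microsomal epoxide hydrolase, fell with TCDD by 0.126 ± 0.030 and Ugt2b1, a glucuronosyltransferase, by 0.078 ± 0.021 (adjusted p = 0.0178 and 0.0438). The Ephx1 call was kept in 31 of 38 alternatives, 25 of them among the 26 fits with single arrays left out. Fits without a PCB 126 or vehicle array reach a TCDD slope only through the pool term and the spread, so they could hardly move it. The Ephx1 call was lost with each array centred on its median (limma adjusted p = 0.0552) and without the pool block (0.0681). The chemical's own arrays (0.0634), the fit without the highest dose (0.0859) and each pool alone did not keep it either. The Ugt2b1 call was kept in 9 of 37 alternatives, 7 of them among the 26 fits with single arrays left out. It was lost with no filter on low values (adjusted p = 0.0763) and with each array centred on its median (0.0658). The call was also lost without the array labelled PCB 126 at -12 of pool 2 (limma adjusted p = 0.0536). The Ugt2b1 slope was -0.02 with the vehicle arrays set on the dose axis (adjusted p = 0.788). Cyp3a23-3a1, a P450 that hydroxylates bile acids, rose with PCB 126 by 0.58 ± 0.092 (adjusted p = 0.00208), and its TCDD slope was 0.31 ± 0.091 (adjusted p = 0.0613). At the 2 highest doses against vehicle it rose by 2.87 with TCDD and by 4.05 with PCB 126, and its probe set may read related Cyp3a transcripts. Abcc2 and Cebpb also rose there with PCB 126, by 0.94 and 1.72, and Cebpb with TCDD by 1.85. At those doses none of the 8 members passed (limma), against 2.25% of all probe sets called with TCDD and 3.04% with PCB 126, and 2 members had an unadjusted p below 0.05 with each chemical, Akr1d1 and Baat, as had 10.9% of all probe sets with TCDD and 13.3% with PCB 126.

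**Figure D5:**
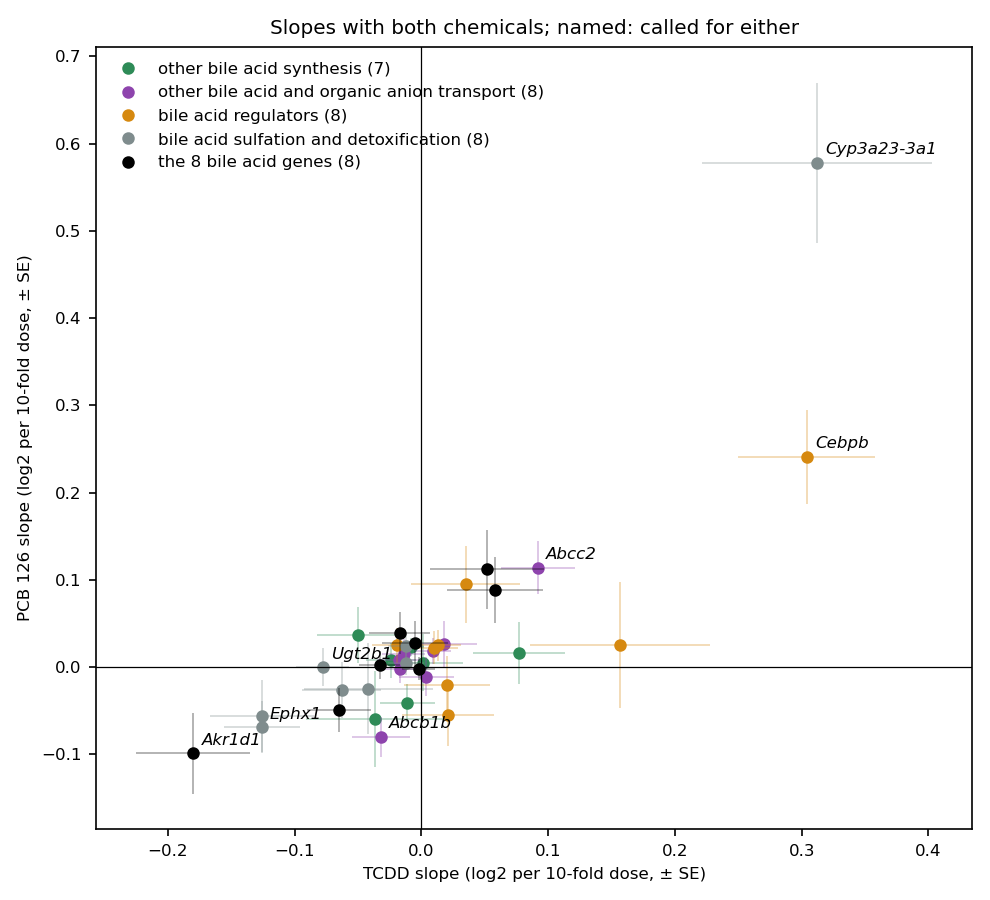
TCDD slope (horizontal) against PCB 126 slope (vertical), in log2 units per 10-fold dose with bars ± SE, for the 8 members in black and the measured genes of 4 further bile acid lists in colour; genes called for either chemical are named. Most points lie near 0, Cyp3a23-3a1 and Cebpb lie at the upper right with slopes of 0.31 and 0.30 for TCDD, and Akr1d1 lies at the lower left. Both slopes rest on the same pool terms and spread.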

How the data were processed

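Gene expression was measured on 26 oligonucleotide arrays of rat hepatocytes. The authors deposited log2 expression values, 1 column per array. Per the submitters' processing notes the tools were GCRMA 2.8.0 and RMA; neither their settings nor the use made of RMA is given in the sources used here. GCRMA corrects background by probe sequence, normalizes between arrays and brings dim values close together, so differences of dim genes are compressed. The deposited values still differed in level between arrays, with array medians of 3.72 to 3.99 in pool 1 and 3.48 to 3.78 in pool 2.

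Groups came from the labels (chemical, log10 M dose, pool). Of 8740 probe sets other than 59 controls, 5197 were kept whose second-highest value exceeded the median of their values, 3.71. Linear models were fitted without a pseudocount in limma 3.58.1 under R 4.3.3, with an intensity trend and robust moderation, and p-values were adjusted by Benjamini-Hochberg over these 5197. The trend model held the pool, the chemical and a slope per chemical (20 residual degrees of freedom); a second held the pool and 15 dose groups (10), and another held slopes by pool (16). The scripts were tested on simulated data.

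Pool was the block since, per the labels, each pool holds cells of its own 3 animals; in the 11 groups with both pools, same-pool deviations from the group means correlated between groups at 0.46 to 0.89, as any shift between pools would give.

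A gene was represented by its kept probe set with the highest mean. Named are all members, every gene of the 4 further lists called in a trend or high-dose contrast, otherwise the 2 genes per list and trend with the smallest p, and per member the 3 genes with the highest correlation. The gene coordinates and promoters are RefSeq's (GRCr8). Coordinates were matched by gene identifier and promoters by gene symbol. The members and lists were chosen with earlier results of these data known, so the calls of Akr1d1, Abcc2, Abcb1b, Cebpb, Cyp3a23-3a1, Ephx1 and Ugt2b1 are no independent support. Alternatives changed the filter, centring, probe sets, model, pool block, doses used, the place of vehicle and the arrays left out.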

Additional observations from a re-analysis of the deposited data

Results flagged for a closer look

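At the 2 highest doses, 2 probe sets moved in opposite directions in the pools, with both arrays of pool 2 above and both arrays of pool 1 below the vehicle array of their pool. For the second Akr1d1 probe set with TCDD the mean change from vehicle was 0.46 in pool 2 and -1.61 in pool 1, a gap of 2.07. Its vehicle arrays were 5.62 in pool 2 and 7.52 in pool 1. For Cyp7a1 with PCB 126 the mean change was 0.35 in pool 2 and -0.31 in pool 1, a gap of 0.66. These differences at the high doses were not tested, and the difference between the pools' slopes over all doses did not pass for either probe set (adjusted p = 0.892 and 1.0).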

How the results depend on the processing

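The count of members called in the TCDD trend was 1, Akr1d1, and its slope ran from -0.24 to -0.11 over 38 alternatives, 25 of which kept the call. Of these, 21 were among the 26 fits with single arrays left out. Every fit without a PCB 126 or vehicle array kept the call with the slope at -0.18. Such fits could hardly change it, since those arrays reach the TCDD slope only through the pool term and the spread. The count was 0 with each array centred on its median, with the mean of a gene's probe sets, with the chemical's own arrays alone, with the doses given to both pools, without the highest dose, in pool 1 alone and in pool 2 alone (adjusted p of Akr1d1 0.0563, 0.0647, 0.0645, 0.0717, 0.24, 0.534 and 0.0537). Without the pool block it was 0 as well (adjusted p = 0.136). With single arrays left out it ran from 0 to 1, and the 0 came without TCDD at -14, -12 or -8 of pool 2 or at -12 or -6.5 of pool 1. When the vehicle arrays were set on the dose axis, 1 decade under the lowest dose, 3 members passed with TCDD (Akr1d1 and Slc10a1 negative, Baat positive) and 3 with PCB 126 (Akr1d1 -0.15, Abcb11 0.10, Slc10a1 -0.06), where 0 passed before and with every array left out. The cause was not tested. Calls over all probe sets reached up to 408 with TCDD and 504 with PCB 126 among the alternatives, against 161 and 221 in the main fit. The share of all probe sets called in this setting is not given here, so these counts say nothing about bile acid genes as such.

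Other bile acid genes called numbered 3 with TCDD and 4 with PCB 126. With TCDD the count was 1 with centring, without the block, with the chemical's own arrays and in pool 2 alone, and 0 in pool 1 alone. With PCB 126 it was 1 without the block and with the doses given to both pools, and 0 in either pool alone. With arrays left out singly both counts ran from 1 to 4. The 5 members called between pools became 2 of 4 tested under the stricter filter, and 4 to 5 with arrays left out. The pool difference of Akr1d1 reversed to -0.01 with its probe sets averaged, and that of Nr1h4 to 0.15 with centring, which also took the call from Slco1a1 (-0.08) and gave one to Cyp27a1 (0.42). No alternative called a member at the high doses, at matched doses, between the chemicals' slopes or between the pools' slopes. Over all probe sets the calls ran from 0 to 408 in the TCDD trend and from 0 to 504 in the PCB 126 trend. Cyp7a1, Slc10a1, Slco1a1 and Nr1h4 did not pass the stricter filter, so low signal limits what can be seen of them.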
